A study of Mus musculus with 16 samples.

Results

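Genes that mark the mesothelium, 10 in number, were followed through RNA sequencing libraries of adipose progenitors, the precursor cells of fat. They were taken by symbol from the count table, where they were 10 of 38720 lines, and are the surface proteins Upk3b, Upk1b, Msln, Muc16 and Lrrn4, the keratins Krt19, Krt8 and Krt18, the secreted inhibitor Slpi and the Golgi enzyme Chst4. The progenitors came from the subcutaneous (SAT) or visceral (VAT) fat of mice aged 4 weeks. Wild-type mice (WT) were labelled C57BL/6J, and knockout mice (KO) carried the same strain label together with the genotype B6;129S2-Nr4a1tm1Jmi/J, a germline allele that disrupts the orphan nuclear receptor gene Nr4a1. The 4 groups (WT SAT, KO SAT, WT VAT and KO VAT) held n = 4 libraries each, described as biological replicates. The labels do not say that the replicates were separate animals, so p-values measure the spread between these libraries, and the columns carry the word MACS, the usual abbreviation of magnetic cell sorting, with no antibody named.

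The mesothelium is the single layer of flattened epithelial cells that covers the organs and walls of the body cavities, including the outer face of visceral fat. It arises from mesoderm, keeps simple-epithelial keratins beside many mesenchymal genes, and coats its free surface with membrane glycoproteins that let organs slide. Subcutaneous fat lies outside the body cavities and has no such cover. Uroplakins were named for the plaques of the bladder lining. Mesothelin (Msln) is anchored in the membrane by a lipid and binds Muc16, a very large membrane mucin. Krt8 is a type II keratin that pairs with the type I keratins Krt18 and Krt19 in filaments of simple epithelia, and Slpi inhibits serine proteases of white blood cells. Krt8, Krt18, Krt19 and Slpi are also made by other epithelia, so they are less particular to mesothelium than the surface proteins.

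On build mm10 the surface protein genes were Upk3b at chr5:136038496-136046487, Upk1b at chr16:38773184-38800328, Msln at chr17:25748613-25754378, Muc16 at chr9:18495455-18674530 and Lrrn4 at chr2:132868305-132880891. The keratin genes were Krt19 at chr11:100140810-100148665, Krt8 at chr15:101996698-102004482 and Krt18 at chr15:102028180-102032027. Slpi lay at chr2:164354070-164389095 and Chst4 at chr8:110029153-110039740. All 10 are protein-coding in GENCODE. Krt8 shares 101 exon bases with Gm36026, a noncoding gene on the other strand, and the library kit does not mark strand, so reads in those bases cannot be assigned to either gene. Krt8 and Krt18 lie 0.722 and 0.753 Mb from Nr4a1.

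Promoters are shown for the pair of members that moved together most closely (Upk3b and Lrrn4), for the member with the largest genotype difference in VAT (Muc16) and for a member with 0 counts in every SAT library and an AP-1 match (Chst4). Each is the run of 250 bases just upstream of the transcription start in RefSeq on GRCm38.p6 (the same assembly as mm10), read 5′ to 3′ on the strand of the gene. Capitals mark matches to the letters searched. RefSeq sequences were at hand for 7 of the 10 members.
Upk3b (chr5:136038246-136038495, plus strand): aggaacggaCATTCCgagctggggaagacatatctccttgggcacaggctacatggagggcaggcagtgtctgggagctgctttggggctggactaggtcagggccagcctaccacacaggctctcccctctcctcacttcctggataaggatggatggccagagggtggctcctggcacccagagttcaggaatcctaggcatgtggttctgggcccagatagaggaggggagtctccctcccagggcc
Lrrn4 (chr2:132880863-132881112, minus strand): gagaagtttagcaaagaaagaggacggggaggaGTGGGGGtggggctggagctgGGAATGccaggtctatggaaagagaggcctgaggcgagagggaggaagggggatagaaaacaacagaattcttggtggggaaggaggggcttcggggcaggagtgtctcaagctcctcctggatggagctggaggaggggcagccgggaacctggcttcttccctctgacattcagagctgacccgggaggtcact
Muc16 (chr9:18674604-18674853, minus strand): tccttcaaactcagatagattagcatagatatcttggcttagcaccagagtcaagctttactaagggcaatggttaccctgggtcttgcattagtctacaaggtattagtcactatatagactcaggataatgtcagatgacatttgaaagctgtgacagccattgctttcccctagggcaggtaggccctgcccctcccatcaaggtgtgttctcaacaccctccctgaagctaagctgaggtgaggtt
Chst4 (chr8:110039335-110039584, minus strand): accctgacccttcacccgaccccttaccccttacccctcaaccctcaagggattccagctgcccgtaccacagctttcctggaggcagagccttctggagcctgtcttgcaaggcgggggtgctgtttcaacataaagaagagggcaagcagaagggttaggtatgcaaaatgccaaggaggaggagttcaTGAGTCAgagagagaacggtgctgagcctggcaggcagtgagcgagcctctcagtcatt

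A set of 6 short motifs was searched on both strands of these windows, and the share of 32851 mouse promoter windows of the same length that hold each motif is the background. GGAATG, the core read by TEAD factors, was found in 2 of 7 members against 12.6% of all windows. It lay at -241 to -236 of Upk3b, on the opposite strand, and at -196 to -191 of Lrrn4, counting -1 as the base before the start. GTGGGNG, bound by WT1 and EGR zinc fingers, was found in 1 of 7 (Lrrn4, -217 to -211) against 28.1%. TGANTCA, the AP-1 motif, was found in 1 of 7 (Chst4, -59 to -53) against 6.75%. Positions count from the RefSeq start. The Chst4 window lies inside the GENCODE span given above, so by that span the match is within the gene. Of the other windows shown, that of Lrrn4 overlaps the edge of its GENCODE span. The NR4A monomer motif AAAGGTCA (1.34% of all windows), the GC box GGGCGG (32.7%) and TATAAA (12.4%) were found in 0 of 7. A match describes letters and not binding, and these short motifs do not overlap one another in the windows shown.

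Library totals ran from 34655519 to 55551845 counts, and levels are given as CPM, in which TMM scaling and the library totals are divided out. Nr4a1 was 997 to 1212 CPM in WT SAT and 195 to 209 CPM in KO SAT, and 1432 to 1649 against 297 to 327 CPM in VAT, so every library matched its genotype label at this gene. For the labelled cell type, 15 progenitor genes (Col3a1, Col1a1 and Dcn among them) summed to 124190 to 174572 CPM in SAT and 46401 to 60534 CPM in VAT. Col3a1 and Col1a1 held most of that sum, averaging 28014 and 11465 CPM in VAT, so it says little about the rest of the list. In VAT, 3 libraries stood apart from the rest. A list of 12 genes of epididymal and male tract epithelium summed to 498 CPM in WT VAT replicate 2, 307 CPM in KO VAT replicate 4 and 83.2 CPM in KO VAT replicate 3, against 2.02 to 4.7 CPM in the other visceral libraries. Gpx5 led in WT VAT replicate 2 at 159 CPM, whereas Crisp1 led in KO VAT replicates 3 and 4 at 49.5 and 153 CPM. Member calls in VAT, between depots and for the interaction are therefore also given without these 3 libraries. This choice was made after the data were seen. Ratios to Upk3b, other genes and gene lists are not given that way. The part that epididymal RNA plays in any of these results was not tested.

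All 10 genes were found in every visceral library, whereas in subcutaneous libraries they were rare or absent, with 2 exceptions at a low level. Upk3b, the most abundant by CPM, was at 514, 291, 570 and 606 CPM in WT VAT and at 342, 292, 622 and 421 CPM in KO VAT, against 0.024 to 0.3 CPM over the 8 SAT libraries. The uroplakin Upk1b, a tetraspanin, was at 117, 71.0, 130 and 156 CPM in WT VAT and 84.3, 75.3, 144 and 118 CPM in KO VAT. Upk1b had 1 count in all of WT SAT and 3 counts in all of KO SAT. Msln reached 222, 152, 265 and 285 CPM in WT VAT and 145, 132, 294 and 165 CPM in KO VAT, and stayed between 0.046 and 0.801 CPM in SAT. In each of these genes WT VAT replicate 2 was the lowest WT library, and KO VAT replicate 3 was the highest KO library.

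Muc16, the mucin partner of mesothelin, was at 18.4, 13.6, 20.4 and 26.7 CPM in WT VAT and at 8.71, 5.92, 15.02 and 11.02 CPM in KO VAT, and had 0 counts in every SAT library. The leucine-rich repeat membrane protein Lrrn4 was at 139, 76.5, 139 and 152 CPM in WT VAT and 97.0, 89.2, 169 and 103 CPM in KO VAT. It was one of the 2 exceptions in SAT, at 2.47, 2.63, 1.77 and 2.05 CPM in WT and 2.59, 0.855, 1.31 and 1.34 CPM in KO. The visceral groups of Muc16 overlapped only through KO VAT replicate 3, which lay above WT VAT replicate 2, and for Lrrn4 only KO VAT replicate 3 lay outside the WT range, above it.

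Krt19 was the most abundant keratin and the other exception in SAT. It was at 118, 83.8, 151 and 186 CPM in WT VAT and 85.5, 74.4, 144 and 133 CPM in KO VAT, and at 4.7, 6.0, 7.21 and 6.53 CPM in WT SAT and 3.6, 7.18, 7.06 and 7.86 CPM in KO SAT. Krt8 was at 27.5, 25.5, 45.3 and 41.7 CPM in WT VAT and 20.1, 31.4, 42.7 and 38.2 CPM in KO VAT. Its partner Krt18 was at 18.0, 15.7, 29.1 and 20.4 CPM in WT VAT and 11.8, 18.0, 25.7 and 35.3 CPM in KO VAT. The Krt18 maximum was in KO VAT replicate 4, one of the 3 libraries with epididymal transcripts, where the surface proteins were not at their highest.

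Slpi, the protease inhibitor, was at 294, 186, 364 and 315 CPM in WT VAT and 145, 146, 310 and 216 CPM in KO VAT, with 0.071 to 0.337 CPM in SAT. Chst4, a sulfotransferase that acts on N-acetylglucosamine of glycoproteins, was at 26.0, 15.6, 34.98 and 35.9 CPM in WT VAT and 21.7, 11.7, 32.7 and 11.4 CPM in KO VAT, and had 0 counts in all 8 SAT libraries. The lowest Chst4 library was KO VAT replicate 4, the one with the highest Krt18.

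**Figure D1:**
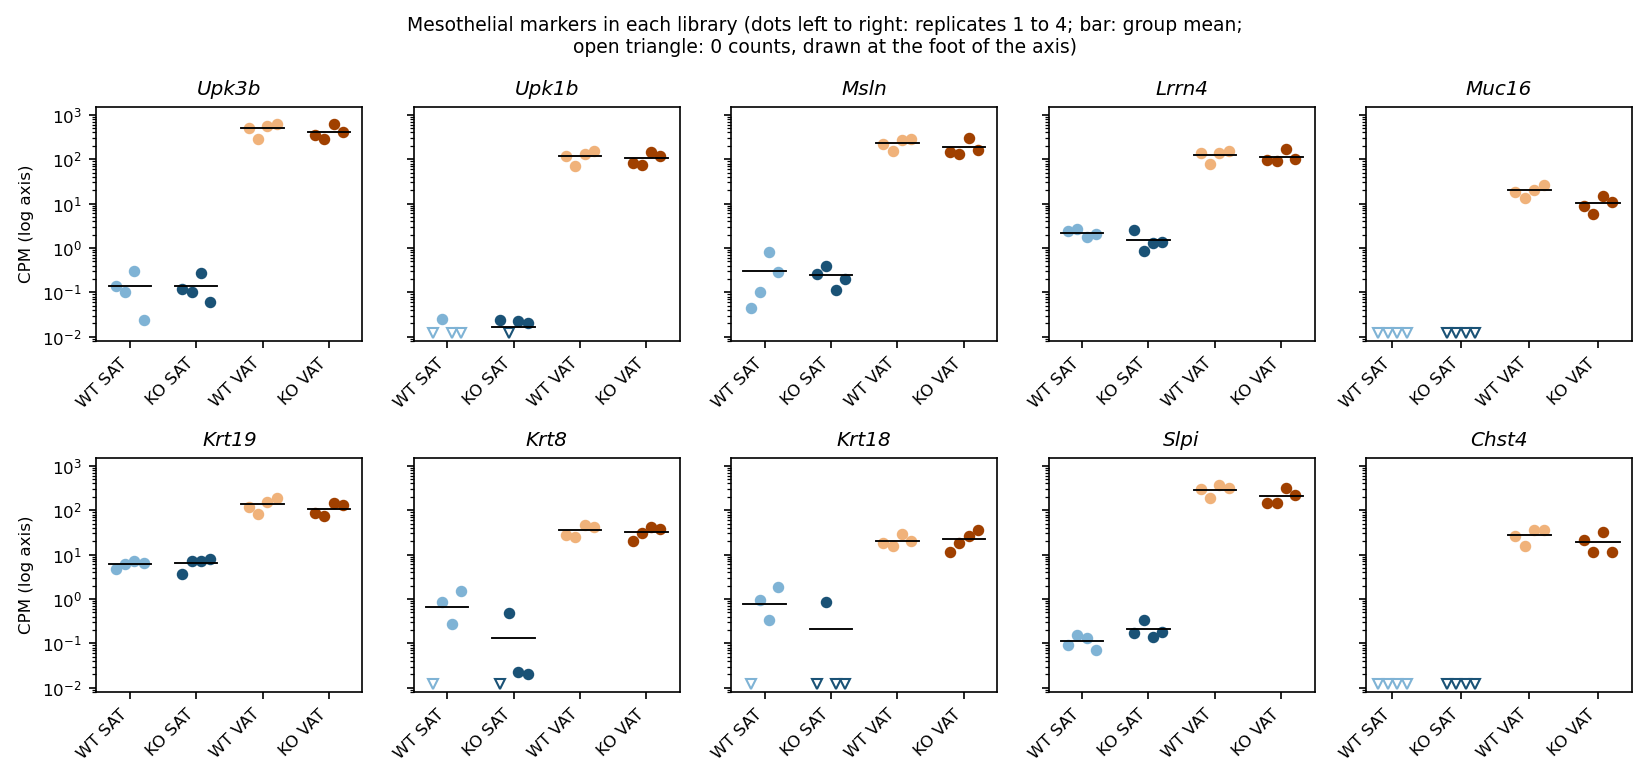
CPM (log scale) of the 10 members in each of the 16 libraries, coloured by group, with the group mean as a bar and libraries at 0 counts as open triangles at the foot of the axis. The visceral libraries of every member lie above all of its subcutaneous ones, for example 291 to 622 CPM against 0.024 to 0.3 CPM for Upk3b.

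Levels were also divided by the kilobases of all annotated exons of a gene together. The order of genes on this scale depends on that annotated length, which can differ from the transcript expressed. Slpi was first in WT VAT at 246 ± 63.5 CPM per kb (SD, n = 4) and Upk3b second at 140 ± 40.1. Msln (75.4 ± 19.2), Krt19 (72.6 ± 23.6) and Upk1b (56.7 ± 17.0) followed within their spread of each other. Lrrn4 stood at 34.0 ± 9.09 CPM per kb, then Krt8 (17.9 ± 5.08), Krt18 (14.5 ± 4.07) and Chst4 (12.3 ± 4.15), which also did not differ beyond their spread. Muc16, whose exons span 26350 bases, was last at 0.751 ± 0.206. KO VAT had the same leaders, with Slpi at 173 ± 66.1 and Upk3b at 119 ± 41.1, a gap smaller than the SD of Slpi. Type I keratins outweighed type II ones per kilobase: Krt18 with Krt19 summed to 52.6 to 114 CPM per kb over the visceral libraries, and Krt7 with Krt8 to 15.1 to 31.1.

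The first comparison asked how the depots differ within a genotype. Every member was called higher in VAT than in SAT by edgeR's quasi-likelihood test (Benjamini-Hochberg adjusted p under 0.05 over 16842 genes) in WT and in KO, where 19.1% and 23.3% of all genes were called higher. The count of 10 in 10 is no separate support, because several members passed the filter on low counts through VAT alone: in SAT the filter level was reached by 8 libraries for Lrrn4 and Krt19, by 4 for Msln, Krt8 and Krt18, by 2 for Upk3b, by 1 for Slpi and by 0 for Upk1b, Muc16 and Chst4. Fewer cells of a type and less RNA per cell cannot be told apart in bulk libraries.

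The depot ratio spanned orders of magnitude between members. From summed counts over TMM-scaled library sizes, Upk3b was 3865-fold higher in VAT in WT (95% exact interval 2503 to 6328, counting error only) and 3014-fold in KO (2025 to 4704). Slpi was 2658-fold higher in WT (1660 to 4564) and 1005-fold in KO (723 to 1443), and Msln was 859-fold (635 to 1192) and 776-fold (572 to 1081). Against a floor of 3 counts over the SAT group, Chst4 was at least 1469-fold higher in WT and at least 1128-fold in KO, and Muc16 at least 1032-fold and 584-fold. For Upk1b the 1 and 3 SAT counts left the ratio open over 3323 to 731408 in WT and 2067 to 29293 in KO.

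The members with SAT counts that could be modelled had smaller ratios. Lrrn4 was higher in VAT by 5.81 ± 0.31 on the log2 scale in WT (adjusted p = 2.7e-10) and by 6.23 ± 0.32 in KO (adjusted p = 1.45e-10). Krt19 was higher by 4.47 ± 0.30 in WT (adjusted p = 3.74e-09) and 4.08 ± 0.29 in KO (adjusted p = 7.29e-09). Krt8 was higher by 5.71 ± 0.55 and 8.05 ± 0.69 (adjusted p = 3.36e-07 and 5.89e-08), and Krt18 by 4.69 ± 0.69 and 6.85 ± 0.83 (adjusted p = 3.82e-05 and 3.58e-06). The keratin folds leaned on single SAT libraries: without KO SAT replicate 2 they were 10.87 for Krt8 and 12.98 for Krt18 in KO, and without WT SAT replicate 4 they were 6.57 and 5.59 in WT. In KO Krt19 had the lowest depot ratio of the 10, whereas in WT it was not separated from Krt18 beyond their errors. Krt19 was also the member with the highest level in SAT. Without the 3 visceral libraries with epididymal transcripts all 10 stayed called in both genotypes.

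The second comparison asked whether the loss of Nr4a1 changed the members in VAT. None of the 10 was called (edgeR, 0 of 10 against 4.1% of all genes, and 2 had an unadjusted p under 0.05). Of the 10 estimates 9 were below 0, with a median log2 fold change of -0.27 against -0.004 over all tested genes. The members varied together between libraries, so these signs are not separate observations. Muc16 had the largest difference, with means of 19.8 ± 5.43 CPM in WT and 10.2 ± 3.85 CPM in KO (SD, n = 4) and a log2 fold change of -0.96 ± 0.27 (edgeR, adjusted p = 0.0829). DESeq2 (adjusted p = 0.0142) and limma-voom (adjusted p = 0.0102) called it lower, as did edgeR with the replicate number as a block (adjusted p = 0.0133). Those 3 fits called 6.65%, 4.66% and 3.63% of all genes, and Muc16 was the only member among their calls. Slpi averaged 290 ± 75.0 CPM in WT and 205 ± 78.0 CPM in KO (log2 fold change -0.50 ± 0.22, adjusted p = 0.234).

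The other surface proteins differed by less than the SD between libraries. Upk3b stood at -0.24 ± 0.24 (adjusted p = 0.671), Upk1b at -0.17 ± 0.20 (adjusted p = 0.743), Msln at -0.33 ± 0.27 (adjusted p = 0.595) and Lrrn4 at -0.14 ± 0.24 (adjusted p = 0.833). Among the keratins Krt19 was at -0.30 ± 0.25 (adjusted p = 0.599), Krt8 at -0.08 ± 0.40 (adjusted p = 0.951) and Krt18 at 0.12 ± 0.53 (adjusted p = 0.944). Chst4 was at -0.54 ± 0.35 (adjusted p = 0.483). The WT and KO libraries overlapped for all 10 members in CPM, whereas 6.72% of all genes were lower in KO without overlap.

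The result in VAT depended on which libraries were kept. Leaving out KO VAT replicate 3, the highest KO library for 9 of 10 members (all but Krt18), made Muc16 (-1.21, adjusted p = 0.034) and Slpi (-0.78, adjusted p = 0.0313) called, with 3.47% of all genes called. Leaving out the 3 libraries with epididymal transcripts left 3 WT and 2 KO libraries, and edgeR then called 4 of 10 members lower, against 1.63% of all genes called in either direction. These were Slpi (-1.15, adjusted p = 0.000611), Upk1b (-0.75, adjusted p = 0.0104), Muc16 (-1.58, adjusted p = 0.0204) and Upk3b (-0.83, adjusted p = 0.045). The 3 libraries left out were the lowest WT library and the 2 highest KO libraries for Upk3b, with 291 CPM on the WT side and 622 and 421 CPM on the KO side. The 5 that remained held 514, 570 and 606 CPM in WT and 342 and 292 CPM in KO.

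Because members varied together between libraries, each was also set against Upk3b within its library, a description chosen after the data were seen and given with no test. Muc16 was 3.58, 4.68, 3.58 and 4.41% of the Upk3b CPM in the WT VAT libraries and 2.54, 2.02, 2.41 and 2.62% in the KO VAT libraries. Slpi was 57.2, 64.0, 63.8 and 51.9% of Upk3b in WT VAT and 42.5, 49.99, 49.9 and 51.5% in KO VAT. Both ratios were lower in KO without overlap, narrowly so for Slpi. Of all genes 0.238% were lower relative to Upk3b without overlap, but that share is not a like background. Upk3b ran from 291 to 606 CPM in WT VAT and from 292 to 622 CPM in KO VAT. A gene that does not vary with Upk3b takes that spread into its ratio, so it passes less easily than a member. The share therefore does not show how rare the Muc16 and Slpi ratios are. They come from the same libraries as the VAT comparison and are no separate support. The ratios of the other 7 members overlapped between genotypes: Lrrn4, for example, was 25.6 ± 1.20% of Upk3b in WT and 27.7 ± 2.46% in KO, and Upk1b 23.9 ± 1.41% and 25.4 ± 2.02%.

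In SAT the third comparison, again KO against WT, called none of the 10 (edgeR, 5.89% of all genes called; 1 of 10 with an unadjusted p under 0.05; 0 of 10 in DESeq2 and in limma-voom). Levels allowed a fold change for only 4 members. Krt19 was at 6.11 ± 1.06 CPM in WT and 6.42 ± 1.91 CPM in KO (log2 fold change 0.08 ± 0.29, adjusted p = 0.897), and Lrrn4 at 2.23 ± 0.391 and 1.52 ± 0.746 CPM (-0.56 ± 0.34, adjusted p = 0.347). The keratin pair had lower means in KO, with Krt8 at -2.42 ± 0.99 (adjusted p = 0.16) and Krt18 at -2.03 ± 1.05 (adjusted p = 0.26), and the SD within each genotype was as large as its mean or larger. Single libraries moved both estimates. Without KO SAT replicate 2 they were -5.24 for Krt8 and -8.17 for Krt18 (adjusted p = 0.0614 and 0.0619), and without WT SAT replicate 4 they were -1.55 and -1.13 (adjusted p = 0.398 and 0.584).

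Most of the Krt8 and Krt18 counts in SAT came from 3 libraries. Krt8 was at 0, 0.842, 0.267 and 1.49 CPM in WT SAT and at 0, 0.492, 0.023 and 0.02 CPM in KO SAT. Krt18 was at 0, 0.97, 0.334 and 1.84 CPM in WT SAT and at 0, 0.855, 0 and 0 CPM in KO SAT. WT SAT replicates 2 and 4 and KO SAT replicate 2 were high for both keratins, and the same 3 libraries were highest for Epcam, an adhesion protein of epithelia, at 0.893, 1.04 and 0.596 CPM against at most 0.223 CPM in the other SAT libraries. The tight junction gene Cldn4 was likewise highest there, at 0.485, 0.377 and 0.544 CPM against at most 0.134 CPM. Of the 19 genes of the epithelial list, 3 (Epcam, Cldn4 and Csn3) were higher in these 3 libraries than in all 5 others, and the other 16 were not. Cldn7 was highest in KO SAT replicate 1, at 0.624 CPM, and lowest in WT SAT replicate 4, at 0.118 CPM, and Krt7 was 0.155 CPM in KO SAT replicate 2 against 0.391 CPM in KO SAT replicate 3. The list summed to 10.3 to 11.2 CPM in the 3 libraries and 8.02 to 10.8 CPM in the other 5. Upk3b did not follow these libraries and was highest in WT SAT replicate 3, at 0.3 CPM. The part of epithelial RNA in the Krt8 and Krt18 values was not tested.

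**Figure D2:**
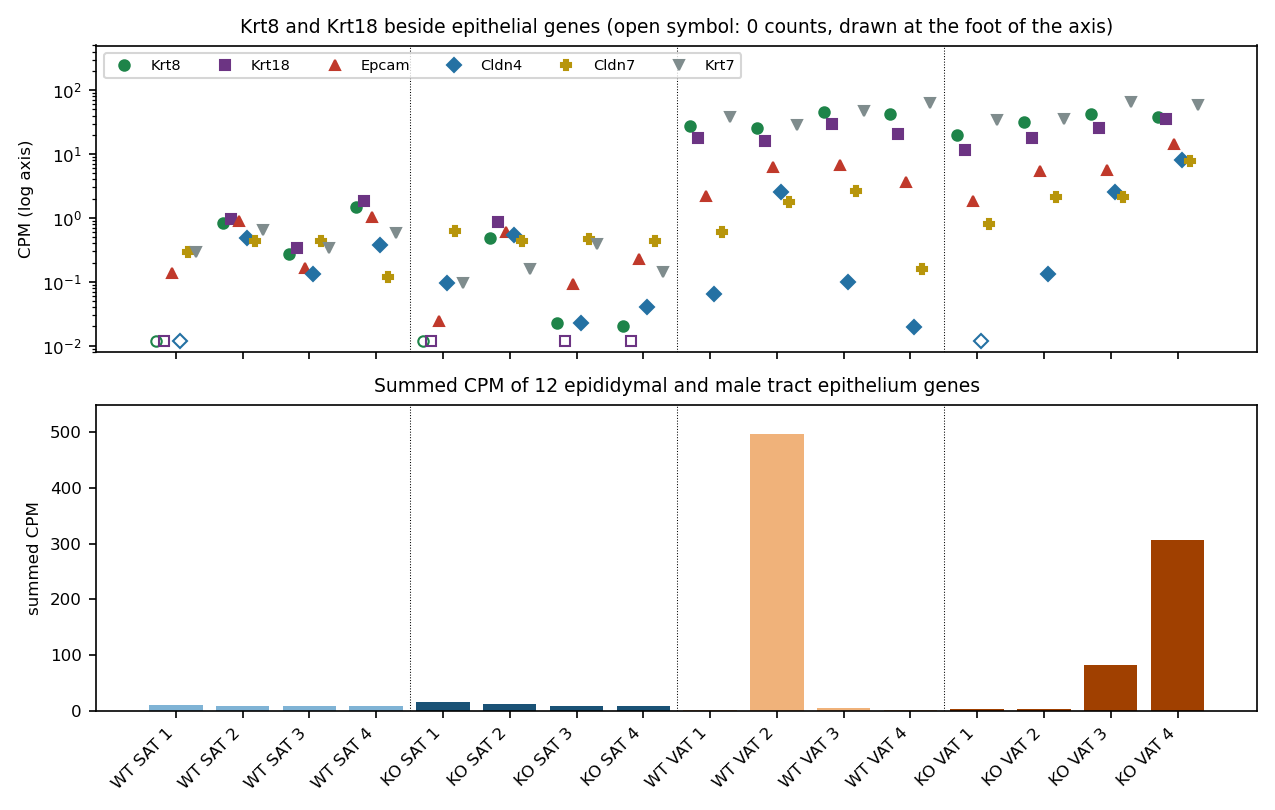
Top, CPM (log axis) of Krt8, Krt18, Epcam, Cldn4, Cldn7 and Krt7 in each library; bottom, summed CPM of the 12 epididymal genes. In SAT the 3 libraries with most Krt8 and Krt18 are those with most Epcam (0.893, 1.04 and 0.596 CPM) but not with most Cldn7, and the 3 tall bars are WT VAT replicate 2 (498 CPM) and KO VAT replicates 3 and 4 (83.2 and 307 CPM).

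The interaction, the KO effect in VAT less that in SAT, was called for 0 of 10 members (edgeR, 0.267% of all genes called; 1 of 10 with an unadjusted p under 0.05; 0 of 10 in DESeq2 and limma-voom). The estimates were 2.33 ± 1.08 for Krt8 (adjusted p = 0.304), 2.16 ± 1.18 for Krt18 (adjusted p = 0.376), 0.42 ± 0.41 for Lrrn4 (adjusted p = 0.634) and -0.38 ± 0.38 for Krt19 (adjusted p = 0.634). With 1 library left out the Krt8 estimate ran from 1.47 (without WT SAT replicate 4) to 5.16 (without KO SAT replicate 2), and that of Krt18 from 1.25 to 8.29 for the same libraries, with neither called. Without the 3 visceral libraries 1 of 10 was called, Slpi, against 0.387% of all genes, and its SAT counts are too few for a fold change. Krt8 and Krt18 lie close to the altered locus. They are among the 39 tested genes, Nr4a1 not counted, whose start lies within 1 Mb of the start of Nr4a1. Of these 39, 5 (12.8%) were called between genotypes in SAT and 7 (17.9%) in VAT, against 5.89% and 4.1% of all genes. The knockout and the chromosome segment that came with it cannot be told apart.

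The fourth question was how the members varied together over the 8 visceral libraries. Log2 CPM, with the mean of each genotype removed, were correlated for all 45 pairs of members. Every r was above 0, with a median of 0.85, and 16 pairs had r of at least 0.9. Under a two-sided exact permutation test that kept libraries within their genotype (smallest possible p = 0.00174), 28 pairs had an unadjusted p under 0.05 for r and 25 passed after Benjamini-Hochberg adjustment over the 45 pairs. By Spearman's rho 29 passed, with a median rho of 0.881. The values of a library share its total, its scaling and its mix of cells. The share of other gene pairs that pass the same test is not given here, so the 25 pairs cannot be called particular to the members.

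The highest r were found among the surface proteins and also between them and Krt19 or Slpi. For example, r was 0.959 for Upk3b with Slpi but 0.864 for the surface proteins Lrrn4 and Muc16. Upk3b and Lrrn4 had r = 0.979 and Spearman's rho = 1 (exact permutation p = 0.00174 for each, adjusted p = 0.00651 and 0.00977, n = 8), and r was 0.957 without the 2 libraries farthest from the median of Upk3b. Upk3b and Upk1b had r = 0.978 and rho = 0.929 (exact permutation p = 0.00174 for each, adjusted p = 0.00651 and 0.00977, n = 8), and 0.93 without those 2. Msln followed Upk3b at r = 0.97 with rho = 1 (exact permutation p = 0.00174 for each, adjusted p = 0.00651 and 0.00977), and 0.98 without those 2. Mesothelin and its partner Muc16 had r = 0.915 and rho = 0.905 (exact permutation p = 0.00347 for each, adjusted p = 0.0112 and 0.00977), and 0.858 without the 2 libraries farthest from the median of Msln. Upk1b and Krt19 had r = 0.976 and rho = 0.976 (exact permutation p = 0.00174 and 0.00347, adjusted p = 0.00651 and 0.00977), and 0.949 without 2.

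Krt8 and Krt18 were less tied to the other members by Pearson's r, and less clearly so by rank, and Chst4 was no tighter than Krt8. The median r with the other members was 0.733 for Krt8, 0.571 for Krt18 and 0.712 for Chst4. The pair Krt8 and Krt18 had r = 0.874 and rho = 0.81 (exact permutation p = 0.0104 and 0.0451, adjusted p = 0.0247 and 0.0655). That r was 0.688 without the 2 libraries farthest from the median of Krt8. In the 16 pairs of either with another member the median r was 0.64 and the median rho 0.75. By r, 1 of these pairs passed the adjustment, Krt8 with Slpi (r = 0.816, exact permutation p = 0.0226, adjusted p = 0.0442; rho = 0.952, exact permutation p = 0.00347, adjusted p = 0.00977). That r was 0.656 without the 2 libraries farthest from the median of Krt8. By rho 5 of the 16 passed, Krt8 with Slpi and Krt8 with Upk3b, Upk1b, Msln and Lrrn4 (rho = 0.81, exact permutation p = 0.0313 and adjusted p = 0.0485 for each of these 4), whereas Krt8 with Krt18 did not. In the 28 pairs without Krt8 and Krt18 the median r was 0.92 and 23 passed by r and 24 by rho. Those that did not pass, by r or by rho, were all pairs of Chst4. Krt19 was nearer to the surface proteins, at r = 0.923 and rho = 0.905 with Upk3b (exact permutation p = 0.00174 and 0.00347, adjusted p = 0.00651 and 0.00977), and 0.797 without 2 libraries. With Krt8, its partner in filaments, Krt19 had r = 0.797 and rho = 0.762 (exact permutation p = 0.0417 and 0.0625, adjusted p = 0.0694 and 0.0852), and 0.924 without 2 libraries. Whether these groups of pairs differ was not tested.

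The loosest pair was Krt18 and Chst4, with r = 0.07 and rho = 0.26 (exact permutation p = 0.894 and 0.576, adjusted p the same), and r was 0.814 without KO VAT replicates 4 and 1, the 2 libraries farthest from the median of Krt18. In KO VAT replicate 4 Krt18 lay 0.75 above its genotype mean on the log2 scale and Chst4 0.62 below. The ratio of Krt18 to Krt8 per kilobase was 1.26 in that library and 0.666 to 0.891 in the other 7 visceral libraries. Epcam was 14.5 CPM and Cldn4 8.07 CPM there, against at most 6.73 and 2.57 CPM in the other visceral libraries, and the part of that RNA in the Krt18 value was not tested.

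**Figure D3:**
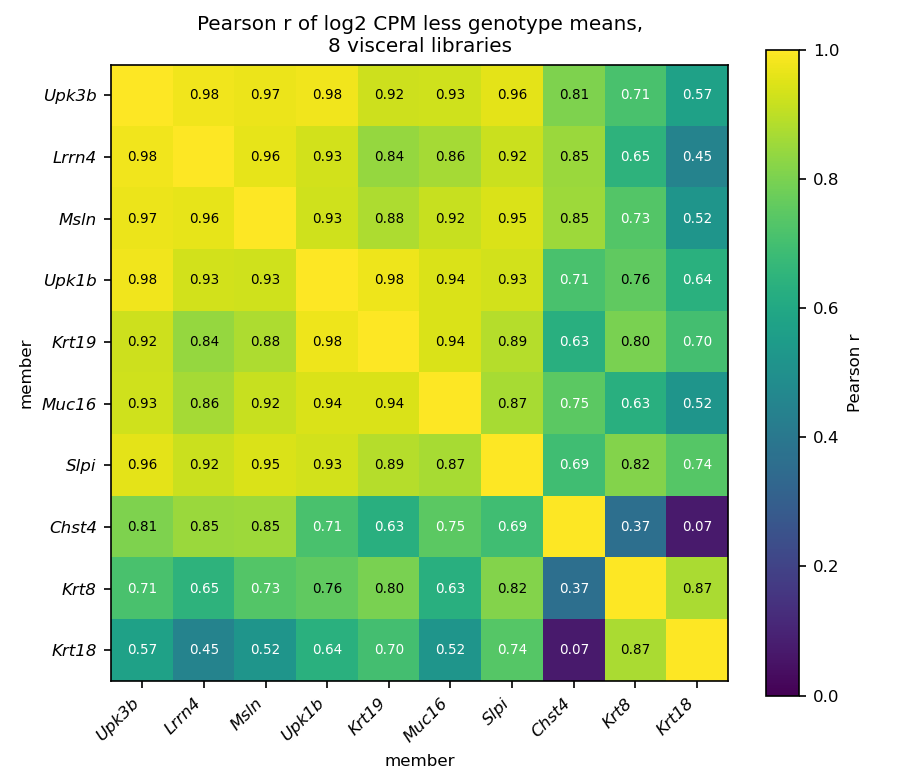
Pearson r for each pair of the 10 members over 8 visceral libraries, from log2 CPM less genotype means, coloured from dark (0) to yellow (1). The cells among Upk3b, Upk1b, Msln, Lrrn4, Muc16, Krt19 and Slpi are yellow to light green (0.841 to 0.979), and most of those of Krt8, Krt18 and Chst4 are darker, down to r = 0.07 for Krt18 with Chst4.

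The shared movement can be read library by library. The mean deviation of the 10 members from their genotype mean was -0.59 on the log2 scale in WT VAT replicate 2, where 0 of 10 were above it, and 0.29 and 0.33 in WT VAT replicates 3 and 4, where 10 of 10 were. In KO VAT, replicates 1 and 2 were at -0.30 and -0.40, replicate 3 was at 0.59 with 10 of 10 above, and replicate 4 was at 0.12 with 7 of 10 above. The libraries of a genotype thus spanned -0.59 to 0.33 in WT and -0.40 to 0.59 in KO, beside a median KO difference of -0.27. The count of pairs that passed also rested on single libraries: it was 8 without WT VAT replicate 2, 14 without WT VAT replicate 3, 15 without WT VAT replicate 1 and 16 without KO VAT replicate 3, while the median r was 0.78 to 0.93 over all leave-one-out sets. With 7 libraries the smallest possible p is 0.00694. WT VAT replicate 2 and KO VAT replicate 3, the extremes, both held epididymal transcripts and lay on opposite sides, and 5 libraries without such transcripts are too few for a correlation.

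**Figure D4:**
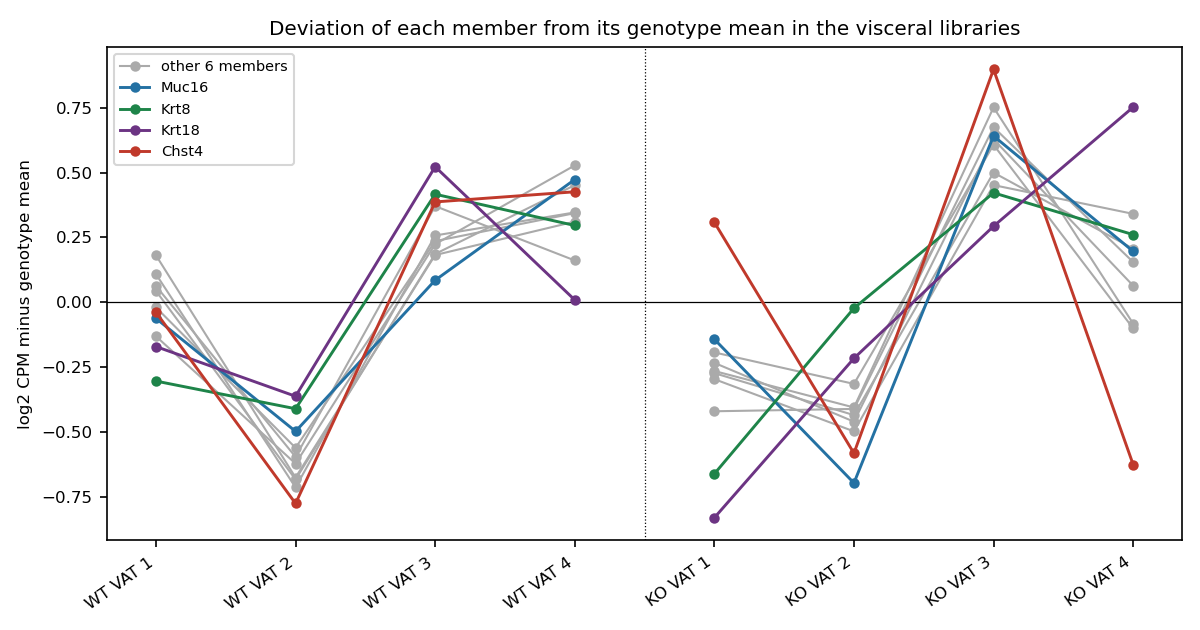
Deviation of each member from its genotype mean (log2 CPM) in the 8 visceral libraries, with Muc16, Krt8, Krt18 and Chst4 in colour and the other 6 in grey; lines only join the points of a member. All 10 lie below 0 in WT VAT replicate 2 (mean -0.59) and above 0 in KO VAT replicate 3 (mean 0.59), and they spread apart in KO VAT replicate 4.

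The genes most like the members were ranked by r with the mean deviation of the 10 over the same 8 libraries, among 10301 protein-coding genes, as a description. The first 10 were Dync1i2 (r = 0.996), Cldn10 (0.995), Tmem98 (0.994), Crls1 (0.993), Lgals3 (0.992), Cxadr (0.991), Tmem151a (0.99), Gabarapl1 (0.989), Ptplad2 (0.986) and Lgals7 (0.984). Their depot levels were unlike one another. Cxadr, an adhesion receptor of epithelial junctions, and the galectin gene Lgals7 had the depot order of the members, at 48.8 ± 16.2 and 25.2 ± 10.2 CPM in KO VAT against 0.479 ± 0.185 and 0.188 ± 0.0444 CPM in KO SAT. The claudin gene Cldn10 was higher in SAT, at 44.6 ± 6.03 CPM in KO SAT against 19.5 ± 5.77 CPM in KO VAT. Gabarapl1, of the autophagy machinery, was the 1 of the 10 called lower in KO VAT (edgeR, -0.37 ± 0.08, adjusted p = 0.0196), against 4.1% of all genes called in either direction.

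Other mesothelial genes were read from a list of 25, of which 23 were tested. Wt1, the transcription factor of mesothelium, was 103 ± 8.51 CPM in WT VAT and 92.1 ± 2.96 CPM in KO VAT, with at most 0.115 CPM in any SAT library, and Bnc1 was 30.9 ± 8.85 and 28.7 ± 9.83 CPM. Calb2 and Itln1, both used as mesothelial markers in other settings, did not pass the filter. In KO VAT, 0 of 23 rose and 2 fell by edgeR, C3 (-0.34 ± 0.09, adjusted p = 0.0368) and Cybrd1 (-0.73 ± 0.19, adjusted p = 0.0428). Of all genes 4.1% were called in either direction. Of the 23 estimates 21 were below 0, with a median of -0.20 against -0.004 over all tested genes. Most of these genes varied with the members over the visceral libraries, so these signs are not separate observations. In KO SAT 1 rose by edgeR (Aldh1a2, 1.60 ± 0.37, adjusted p = 0.0178) and 1 fell (Bcam, -0.55 ± 0.14, adjusted p = 0.0319), against 5.89% of all genes called.

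The 6 most abundant genes of that list in VAT, C3, Igfbp6, Efemp1, Bcam, Rarres2 and Pdpn, were all at 86.5 CPM or more on average in every group, and so were not confined to VAT. C3, the complement component, averaged 8369 CPM in WT SAT and 7749 CPM in WT VAT. Over the visceral libraries 21 genes of the list were ranked for likeness to the members, with a median r of 0.886 and a range from -0.18 (C3) to 0.99 (Tmem151a); the median of all ranked genes was 0.0116. Bnc1 followed the members closely at r = 0.981, and Wt1 less so at 0.535.

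Markers of other cells were spread on both sides of 0. The 15 progenitor genes had a median r of -0.09 with the members, from -0.86 for Pdgfra to 0.82 for Dpp4, the surface peptidase of interstitial progenitors. The medians were 0.48 for 4 ranked epithelial genes (Krt7 at 0.939, Krt14 at 0.714), -0.70 for 2 epididymal genes, 0.02 for 3 of macrophages and neutrophils (Csf1r at 0.683), 0.62 for 3 of endothelium (Kdr at 0.888, Emcn at 0.618) and -0.07 for 10 of pericytes and smooth muscle. The 2 epididymal genes, Lcn8 and Rnase10, were highest in WT VAT replicate 2, where all 10 members lay below their genotype mean, so their r rests on that library. Crisp1, which led in KO VAT replicates 3 and 4, did not pass the filter and was not ranked. In KO against WT VAT, 1 of 15 progenitor genes rose and 0 fell, with 0 and 0 of 11 tested epithelial genes, 0 and 1 of 3 epididymal genes, 1 and 0 of 7 macrophage and neutrophil genes, 0 and 0 of 9 endothelial genes and 0 and 0 of 10 pericyte and smooth muscle genes. In KO against WT SAT the counts that rose and fell were 2 and 0, 0 and 0, 0 and 0, 0 and 0, 1 and 0, and 0 and 1 for the same lists in that order. The genes were Cd24a, Lcn8 and Cd68 in VAT and Cd55, Lum, Kdr and Tagln in SAT, named after their values were seen. Lcn8 was 127 CPM in WT VAT replicate 2 and at most 1.31 CPM in any other library. Cd24a was 7.07 ± 2.24 CPM in WT VAT and 15.1 ± 7.49 CPM in KO VAT. Over all tested genes 4.1% were called in VAT and 5.89% in SAT, so counts this small are no result about the lists.

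Summed levels in WT VAT and KO VAT were 58.0 to 95.9 and 47.1 to 149 CPM for the 19 epithelial genes, and 36.1 to 58.0 and 31.8 to 57.8 CPM for the 11 macrophage and neutrophil genes. They were 45.4 to 61.5 and 34.1 to 50.4 CPM for the 9 endothelial genes and 5544 to 5999 and 5152 to 6588 CPM for the 10 pericyte and smooth muscle genes. Much of the epithelial sum was Krt7 and Krt14, which had r of 0.939 and 0.714 with the members. Krt7 averaged 44.5 CPM in WT VAT and 48.1 CPM in KO VAT, Krt14 16.4 and 7.39 CPM, and Epcam 4.73 and 6.85 CPM. The members themselves summed to 931 to 1824 CPM in WT VAT and 877 to 1799 CPM in KO VAT, and to 6.77 to 12.3 CPM in the SAT libraries.

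Most relatives of the members were too low to test. Of 4 other uroplakin genes 1 was tested, Upk1a, at 0.338 ± 0.103 CPM in WT VAT and 0.747 ± 0.377 CPM in KO VAT (log2 fold change 1.13 ± 0.41, adjusted p = 0.147). Of 48 other keratin genes 12 were tested. Krt7, a type II keratin of simple epithelia, was 28.9 to 63.9 CPM in WT VAT and 34.1 to 65.2 CPM in KO VAT, and 0.465 ± 0.174 and 0.196 ± 0.132 CPM in WT and KO SAT. Krt14, a type I keratin of basal epithelium, was 16.4 ± 5.94 CPM in WT VAT and 7.39 ± 3.69 CPM in KO VAT (-1.16 ± 0.32, adjusted p = 0.0511). Krt36, Krt20 and Krt10 had the opposite depot order, at 16.5 ± 3.48, 9.56 ± 3.02 and 8.92 ± 0.552 CPM in WT SAT against 0.332 ± 0.197, 2.17 ± 1.11 and 4.84 ± 0.213 CPM in WT VAT.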

How the data were processed

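The authors deposited a table of whole-number counts per gene symbol and library, and all values here come from it. Their normalized table was not used. The tools in the submitters' processing notes are FastQC, STAR, featureCounts and DESeq, with build mm10, and their versions and settings were not given in the sources used here. NEBNext Ultra libraries, whose kit does not mark strand, were sequenced as single reads, per the labels' protocols. Positions and exon lengths came from GENCODE M21 and promoters from RefSeq.

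Counts of 16 libraries were fitted in R 4.3.3 with edgeR 4.0.16: filterByExpr (minimum count 10, 16842 genes kept), TMM scaling, 1 coefficient per group, 12 residual degrees of freedom, quasi-likelihood tests, Benjamini-Hochberg adjustment over all tested genes, calls at adjusted p under 0.05. Each SE is the size of the log2 fold change over the root of its F statistic. Alternatives were DESeq2 1.42.0, limma-voom (limma 3.58.1), RLE scaling, no filter, the groups compared alone, a replicate block and each library left out. Modelled fold changes involving SAT are given for members averaging at least 20 counts in a SAT group. For the other members only depot ratios from summed counts are given. Correlations used log2 CPM with prior count 2. The fit was tested on simulated data. No pair of libraries of a group agreed within sampling noise.

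The members and all lists (other mesothelial genes, adipose progenitors, epithelium and mammary gland, epididymal and male tract epithelium, macrophages and neutrophils, endothelium, pericytes and smooth muscle) were chosen with earlier results of these data known. Named genes are all members, the 10 protein-coding genes most like their mean with at least 5 CPM in VAT and no provisional name, the 6 most abundant other mesothelial genes in VAT, up to 3 of each other list and the 5 most abundant other keratins and uroplakins; genes of small counts and extremes were named after their values were seen. Intervals and floors cover counting error only, since reads carry no molecular identifiers.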

Additional observations from a re-analysis of the deposited data

Results flagged for a closer look

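Among 34 groups of 4 libraries examined, 2 had a library whose gap to its nearest neighbour took more of the range of the group than Dixon's 95% critical value allows; chance flags about 1 group in 20. Both were in KO SAT replicate 2. Krt8 was 0.492 CPM there against 0 to 0.023 CPM in the other KO SAT libraries (gap over range 0.953), and Krt18 was 0.855 CPM against 0 in each of the others (gap over range 1). With 0 in every other library that ratio is 1 whatever the value, so the Krt18 flag was fixed by the zeros. For Krt8 the other libraries held 0, 1 and 1 counts against 19. Epcam and Cldn4 were also highest in that library among KO SAT, at 0.596 and 0.544 CPM. Of the 19 genes of the epithelial list 8 were highest there among KO SAT and 11 were not, Cldn7 (0.441 CPM against 0.624 CPM in replicate 1) and Krt7 (0.155 CPM against 0.391 CPM in replicate 3) among the latter; the part of such RNA in the keratin values was not tested.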

How the results depend on the processing

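All 10 members stayed called between depots, and 0 of 10 in SAT, under every alternative run. In VAT 0 of 10 became 1 with DESeq2, with limma-voom and with the replicate block, 0 to 2 with 1 library left out, and 4 without the 3 libraries with epididymal transcripts (chosen after seeing the data), where the interaction count went from 0 to 1. The replicate block was no pairing: same-numbered libraries of different groups correlated at -0.16 to 0.18 in their deviations, and not every library correlated best with its own number. The block moved Muc16 to -0.999 and Krt18 from 0.12 to -0.0109. Directions that turned were of members never called: Krt19 in SAT (-0.0338 to 0.28 with 1 library left out), Krt8 in VAT (-0.23 to 0.0947), Krt18 in VAT (-0.17 to 0.34, and -0.60 without the 3 libraries), and the interaction of Lrrn4 (-0.0623 without the 3 libraries). The pairs that passed stayed at 25 with RLE scaling, prior count 0.5 or genotype means kept, and were 8 to 27 with 1 library left out. The cause of these shifts was not tested. In SAT, depth limits 6 members to levels without a modelled fold change.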
